A study of Homo sapiens with 8 samples.

Results

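The messenger RNAs of proteins that bind AU-rich elements, and of adaptors that bring deadenylases to an mRNA, were followed in 2 prostate cancer cell lines. The genes were ZFP36, ZFP36L1, ZFP36L2, BTG1, BTG2, TOB1, TOB2, ELAVL1, HNRNPD and KHSRP, and all probe sets that the array annotation gives to 1 of these symbols alone were taken. This gave 34 of 54675 probe sets and 9 of the 10 genes, and BTG2 was not analysed here. The labels describe LNCaP and 22Rv1 cells on Affymetrix Human Genome U133 Plus 2.0 arrays, 4 arrays for each line and 8 in all. In both lines 1 culture was untreated, 1 was kept for 4 h in 10 mM caffeine, and the remaining cultures received the same caffeine step and then another 4 h of 2 μg/ml actinomycin D, either with 10 mM caffeine or with no caffeine. Caffeine was used to inhibit nonsense-mediated decay (NMD), which destroys mRNAs with a premature stop codon, and actinomycin D stops transcription.

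AU-rich elements lie in the 3′ untranslated regions of many short-lived mRNAs. ZFP36 (tristetraprolin) and its relatives ZFP36L1 and ZFP36L2 bind them through zinc fingers and recruit the CCR4-NOT deadenylase, which shortens the poly(A) tail and starts decay. BTG and TOB proteins bridge the same deadenylase to other mRNAs and slow cell growth. HNRNPD (AUF1) and KHSRP (KSRP) bind AU-rich elements and mostly promote decay, whereas ELAVL1 (HuR) competes for such sites and stabilises the mRNA.

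Across these genes only 1 probe set, HNRNPD 213359_at, passed the test in a comparison of treatments on the deposited values. That count is small and does not describe the genes as a set. The signal of 213359_at was higher with caffeine than without it both before and after transcription was stopped, in both lines. Of all probe sets, 3.04% and 1.16% were higher by at least 1 on the log2 scale in both lines in these comparisons. After actinomycin D alone 213359_at fell (1.86% of all probe sets tested were called lower). That call was lost when any 1 of the 8 arrays was left out. Neither caffeine comparison passed the test for it on the deposited values. The comparison with untreated cells passed only when arrays were set equal on controls added at hybridisation (adjusted p = 0.0484 in limma). ZFP36 and 1 probe set each of ZFP36L2 and BTG1 were lower by more than 1 on the log2 scale after actinomycin D alone in both lines, without passing the test, while the other detected probe sets of ZFP36L2 and BTG1 were not. The other HNRNPD probe sets were lower in both lines after caffeine, and so were all 4 probe sets of ELAVL1, again without passing the test. Only for 201726_at and 201727_s_at of ELAVL1, and for 221481_x_at and 200073_s_at of HNRNPD, did the sign in LNCaP turn when the arrays were set equal on added control RNAs.

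A log2 signal of 4 was the floor for detection. Of the 34 probe sets, 22 reached it on at least 1 array, 20 on all 8 and 2 on some, and 12 stayed below it on every array, with values from 2.27 to 3.60. Each of the 9 genes had at least 1 probe set above the floor. The share below it on all arrays was 35.3%, against 48.3% of all probe sets with 1 symbol. Signals of different probe sets depend on their probes, so no level of one was set against the level of another.

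All 8 arrays held the same distribution of values, with a median of 2.75 and 38.4% of probe sets at the floor or above. A bulk signal does not tell fewer cells with an mRNA from less of it per cell. Each line and treatment had 1 array, so a difference within a line has no replicate check. Of the prostate epithelium markers, all 9 analysed here reached the floor in both untreated lines, at 5.70 to 13.07. None of the 4 leukocyte and 3 endothelial markers did. Of 6 fibroblast markers 1 did in LNCaP (COL1A1 at 8.50) and 3 in 22Rv1 (LUM at 10.21, DCN at 6.31 and COL1A1 at 5.86), while COL1A2, COL3A1 and PDGFRB were under 4 in both. The 18S ribosomal RNA probe sets had a mean signal of 4.09 to 7.08 on 7 arrays and of 11.71 on the remaining one, LNCaP after actinomycin D with caffeine. The 3′ minus 5′ signal of ACTB, a sign of RNA quality, was 2.14, 2.07, 1.81 and 1.20 in LNCaP, in the order untreated, caffeine, actinomycin D with caffeine and actinomycin D alone, and the 22Rv1 arrays gave 0.93, 1.43, 1.31 and 0.91. It was lower after actinomycin D alone than after caffeine in both lines and higher in LNCaP in each treatment, and its part in the results was not tested.

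Promoter sequences from RefSeq (GRCh38.p14) are shown for HNRNPD, whose probe sets parted most clearly under caffeine, and for ZFP36 and BTG1, each of which had a probe set with lower signals in both lines after transcription was stopped (for BTG1 200921_s_at, but not 200920_s_at). Each runs 5′ to 3′ on the gene's strand over the 250 bases before its start site, in lower case, with motif matches in capitals.
HNRNPD, chr4:82373992-82374241, minus strand: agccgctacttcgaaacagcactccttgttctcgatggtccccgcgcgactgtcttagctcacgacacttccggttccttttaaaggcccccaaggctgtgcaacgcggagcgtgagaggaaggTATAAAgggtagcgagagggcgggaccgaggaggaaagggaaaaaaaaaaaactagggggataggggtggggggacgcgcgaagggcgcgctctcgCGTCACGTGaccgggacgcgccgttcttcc
ZFP36, chr19:39406597-39406846, plus strand: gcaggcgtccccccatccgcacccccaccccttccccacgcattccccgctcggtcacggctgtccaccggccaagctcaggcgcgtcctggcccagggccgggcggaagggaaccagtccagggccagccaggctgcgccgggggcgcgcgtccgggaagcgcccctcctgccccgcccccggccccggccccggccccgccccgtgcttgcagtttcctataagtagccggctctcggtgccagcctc
BTG1, chr12:92145847-92146096, minus strand: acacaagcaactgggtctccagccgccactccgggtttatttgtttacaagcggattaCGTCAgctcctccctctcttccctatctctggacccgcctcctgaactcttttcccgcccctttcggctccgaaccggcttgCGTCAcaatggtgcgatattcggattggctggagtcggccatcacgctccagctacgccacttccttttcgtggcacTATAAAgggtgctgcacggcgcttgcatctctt

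The motifs searched on both strands were the full cAMP response element (CRE) TGACGTCA, its short form TGACG, which also lies inside the full element, the EGR site GCGGGGGCG, the E-box CACGTG, the TATA box TATAAA and the CArG box of serum response factor. Of 35116 promoters of this length, 1.65% held the full CRE, 21.2% the short CRE, 4.72% the EGR site, 6.34% the E-box, 10.7% TATAAA and 1.16% the CArG box. With the base before the start site counted as -1, the BTG1 promoter held short CREs whose first bases were at -192 and -110 and a TATAAA at -33. The HNRNPD promoter held TATAAA at -126, and a short CRE at -30 that overlaps an E-box at -27. None of the motifs was in the ZFP36 or TOB2 windows. KHSRP had a short CRE at -66, and of the 2 TOB1 starts 1 had a short CRE at -87. Of the 2 ZFP36L1 starts, 1 had a short CRE at -147 and the other a full CRE at -52. The full CRE is shown because it was the only one among the members, in 30 bases at chr14:68793450-68793479 on the minus strand.
ZFP36L1: agtggaatgagTGACGTCAcagccgcgctc
ZFP36L2 and ELAVL1 were not in the promoter table. These matches describe letters and were set against no binding data.

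Responses shared by the lines were tested with limma, with terms for line and treatment over the 8 arrays, so the 2 lines stand in for replicates of a treatment and the p-values measure only the spread between them. The fit covered 21453 probe sets with a mean signal of at least 4, 21 of them members, and p-values were adjusted over all of them by the Benjamini-Hochberg method. The residual SD of the 21 ran from 0.14 for ELAVL1 244660_at and HNRNPD 221480_at to 1.36 for BTG1 200920_s_at, on the log2 scale. Within a line, probe sets with a signal of at least 4 on 1 of the 2 arrays compared were counted when they differed by at least 1.

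For caffeine against untreated cells, limma called 0 of the 21 members in either direction, against 0.0466% of all probe sets tested. At an unadjusted p under 0.05 it had 2 members higher and 6 lower, beside 3794 of all 21453 probe sets in either direction. In LNCaP 1 of 21 members was higher by at least 1 (6.36% of all detected probe sets) and 1 was lower (5.24%). In 22Rv1 2 of 22 were higher (9.23%) and 5 were lower (7.79%). One member was higher by at least 1 in both lines, HNRNPD 213359_at, against 3.04% of all probe sets. The members had a median of -0.35 in LNCaP, where all detected probe sets had -0.03, and a median of -0.60 in 22Rv1, where all had -0.04. The controls added at hybridisation moved these differences by 0.51 in LNCaP and 0.13 in 22Rv1 when the arrays were set equal on them, and the poly-A controls, which are added before labelling, by 0.20 and 0.28.

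Actinomycin D with caffeine was compared with actinomycin D alone to see whether caffeine kept an mRNA once no new mRNA was made. Limma called 0 of 21 members (0% of all probe sets), with 1 higher and 0 lower at an unadjusted p under 0.05. Of all 21453 probe sets 1712 had such a p in either direction. In LNCaP 1 of 22 members was higher by at least 1 (5.29% of all) and 1 was lower (6.78%). In 22Rv1 1 of 21 was higher (3.74%) and 0 were lower (2%). The probe set higher in both lines was again HNRNPD 213359_at, against 1.16% of all probe sets.

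After actinomycin D alone, compared with the caffeine array before it, limma called 1 of 21 members lower (1.86% of all) and 0 higher (0.475%). At an unadjusted p under 0.05 there were 7 members lower and 1 higher, beside 4663 of all 21453 probe sets in either direction. This comparison also takes caffeine away. In LNCaP 6 of 22 members were lower by at least 1 (11%) and 3 were higher (10.1%). In 22Rv1 5 of 21 were lower (9.39%) and 0 were higher (6.06%). Lower by at least 1 in both lines were 4 of the 21 detected in both, namely ZFP36, ZFP36L2 201368_at, BTG1 200921_s_at and HNRNPD 213359_at, against 4.97% of all probe sets. The median member difference was -0.38 in LNCaP and -0.28 in 22Rv1, beside 0.00 and 0.09 for all probe sets. Set equal on the poly-A controls, the arrays gave decay differences lower by 1.59 in LNCaP and 1.18 in 22Rv1 for every probe set, and on the hybridisation controls lower by 0.62 and 0.08, so values below are relative to the other mRNAs on the array.

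With caffeine kept through the actinomycin D step, limma called 0 of 21 members against the caffeine array (0% of all). At an unadjusted p under 0.05, 6 were lower and 0 higher, beside 2628 of all 21453 probe sets in either direction. In LNCaP 3 of 22 members were lower by at least 1 (9.33%) and 3 were higher (8.03%). In 22Rv1 4 of 21 were lower (6.33%) and 0 were higher (3.94%). None of the members was lower by at least 1 in both lines, against 1.97% of all probe sets. The 4 comparisons share arrays, so their values are given side by side and were not counted as separate evidence.

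**Figure D1:**
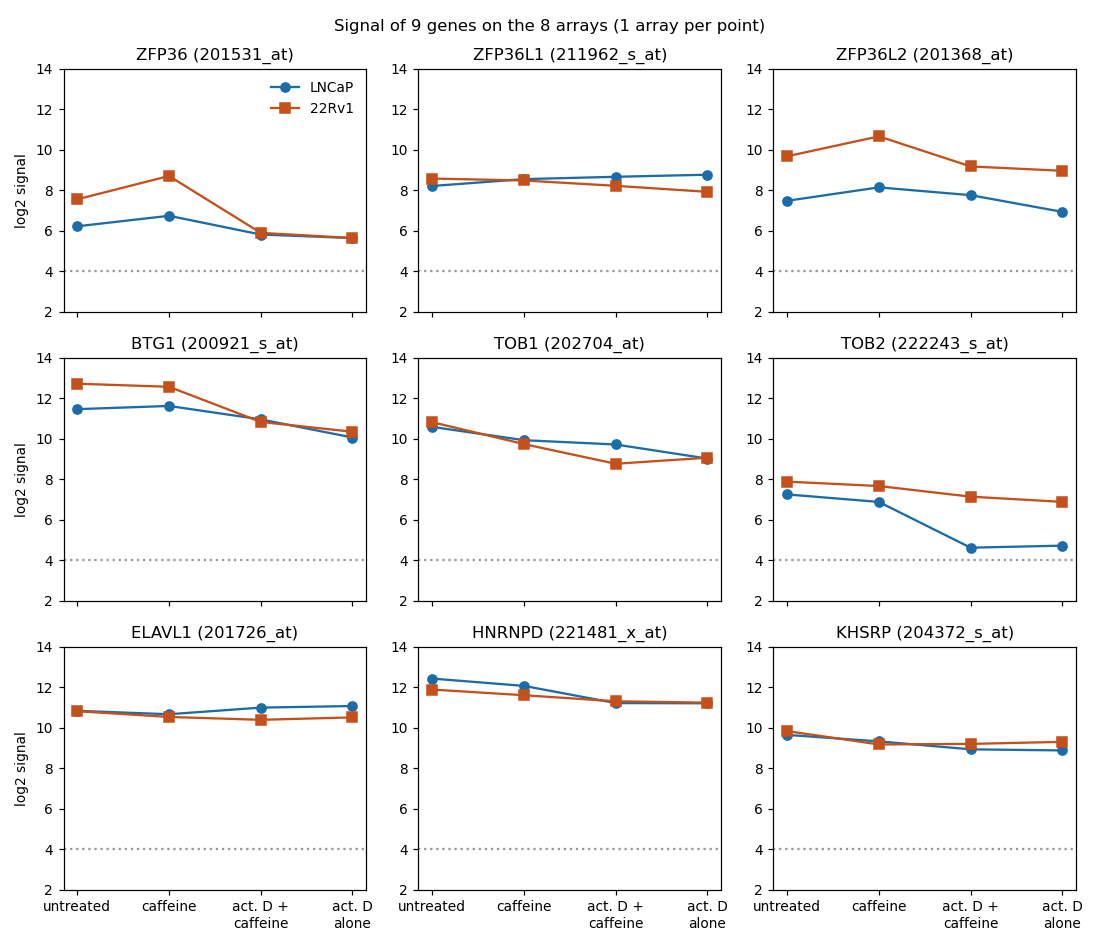
Log2 signal of 9 genes, each read by 1 probe set (that of the largest mean over the arrays), for the 4 treatments on the x axis; circles are LNCaP, squares are 22Rv1, each point is 1 array and the dotted line is the detection floor of 4. ZFP36 in 22Rv1 goes from 8.70 after caffeine to 5.63 after actinomycin D alone, while ELAVL1 stays between 10.39 and 11.07 on all arrays.

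The gene of tristetraprolin, ZFP36, lies on chromosome 19 at 39406847-39409407 (GRCh38.p14) and has 1 probe set. Its signal in LNCaP was 6.21 untreated, 6.73 after caffeine, 5.81 after actinomycin D with caffeine and 5.63 after actinomycin D alone. In 22Rv1 the same arrays gave 7.55, 8.70, 5.89 and 5.63. Caffeine arrays were the highest of each line, the arrays with actinomycin D were the lowest, and the lines met at 5.63 after actinomycin D alone. Caffeine gave a difference of 0.52 in LNCaP and 1.15 in 22Rv1 (limma estimate 0.83, standard error 0.52, adjusted p = 0.465). Decay was -1.10 in LNCaP and -3.06 in 22Rv1 (limma estimate -2.08, standard error 0.52, adjusted p = 0.09998). Kept in caffeine, the differences were -0.93 and -2.81, and caffeine after actinomycin D made a difference of 0.17 and 0.25. With the arrays set equal on the hybridisation controls ZFP36 passed the test after actinomycin D alone (estimate -2.43, adjusted p = 0.00435 in limma) and with caffeine kept (-2.24, adjusted p = 0.0186 in limma).

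ZFP36L2, on chromosome 2 at 43222402-43226606, had 2 probe sets above the floor. Probe set 201368_at read 7.47, 8.13, 7.75 and 6.92 in LNCaP, in the order untreated, caffeine, actinomycin D with caffeine and actinomycin D alone. It read 9.67, 10.65, 9.17 and 8.95 in 22Rv1. All 22Rv1 arrays lay above all LNCaP arrays, and in both lines the caffeine array was highest and actinomycin D alone lowest. How often the lines lay apart in this way over all probe sets is not given here. Line differences were common, as limma called 26.3% of all probe sets tested lower in LNCaP. The caffeine difference was 0.66 in LNCaP and 0.98 in 22Rv1 (limma estimate 0.82, standard error 0.30, adjusted p = 0.242). Decay was -1.21 and -1.70 (limma estimate -1.45, standard error 0.30, adjusted p = 0.0686), and -0.38 and -1.48 with caffeine kept. The second probe set, 201369_s_at, stayed between 4.55 and 5.24 on all arrays. Its LNCaP differences were within 0.06 of 0 and took the other sign under either control scaling. In 22Rv1 its differences had the signs of 201368_at, at 0.45 with caffeine, -0.50 for decay and -0.27 with caffeine kept.

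ZFP36L1, another zinc finger gene of the family, lies on chromosome 14 at 68787655-68796243 and had 2 probe sets that reached the floor. Probe set 211962_s_at read 8.20, 8.54, 8.66 and 8.76 in LNCaP and 8.57, 8.47, 8.21 and 7.91 in 22Rv1, in the same order of treatments. The LNCaP values were highest after actinomycin D alone and the 22Rv1 values lowest there, a pattern relative to other mRNAs. The decay difference was 0.22 in LNCaP and -0.56 in 22Rv1 (limma estimate -0.17, standard error 0.32, adjusted p = 0.796), and the LNCaP value was negative under both scalings, at -0.40 on the hybridisation controls and -1.37 on the poly-A controls. A dimmer probe set, 211965_at, was at or above the floor on 3 arrays only. It read 4.89 and 4.52 on the LNCaP arrays with actinomycin D and 4.24 on the untreated 22Rv1 array, and 3.0 to 3.35 elsewhere, so its mean was under the limit of the test. Its LNCaP decay difference of 1.52 became -0.07 on the poly-A scale.

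BTG1, an antiproliferative gene on chromosome 12 at 92140278-92145846, gave an unequal account by its 2 detected probe sets. Probe set 200921_s_at read 11.45, 11.61, 10.95 and 10.05 in LNCaP and 12.71, 12.56, 10.82 and 10.34 in 22Rv1. In each line both arrays without actinomycin D lay above both with it. Caffeine made a difference of 0.16 in LNCaP and -0.15 in 22Rv1 (limma estimate 0.00, standard error 0.36, adjusted p = 0.998), and the latter was 0.13 on the poly-A scale. Decay was -1.56 in LNCaP and -2.22 in 22Rv1 (limma estimate -1.89, standard error 0.36, adjusted p = 0.0625). With caffeine kept it was -0.66 and -1.74, and caffeine after actinomycin D made a difference of 0.90 and 0.48.

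The other BTG1 probe set, 200920_s_at, read 10.90, 10.61, 11.74 and 11.71 in LNCaP and 11.98, 11.64, 9.49 and 9.43 in 22Rv1. Here both actinomycin D arrays of LNCaP were above the other LNCaP arrays, whereas those of 22Rv1 were the lowest of that line. Decay was 1.10 in LNCaP and -2.21 in 22Rv1, and the LNCaP value became -0.49 on the poly-A scale. With caffeine kept the differences were 1.12 and -2.16, the former -0.06 on the poly-A scale. The LNCaP difference with caffeine kept uses the array with the 18S signal of 11.71, and the decay difference does not. Over the 8 arrays the 2 probe sets had a Pearson r of 0.46, as a description of points that share arrays. Probe sets with _s_at or _x_at in their names can share probes with other transcripts, and which BTG1 transcripts each one reads was not given in the sources used here.

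TOB1, a relative of BTG1 on chromosome 17 at 50862223-50867978, was highest in untreated 22Rv1 cells in both of its probe sets. Probe set 202704_at read 10.58, 9.92, 9.71 and 9.01 in LNCaP, whereas the 22Rv1 arrays gave 10.81, 9.73, 8.76 and 9.06. The untreated array was the highest of each line. Caffeine made a difference of -0.66 in LNCaP and -1.08 in 22Rv1 (limma estimate -0.87, standard error 0.32, adjusted p = 0.248), with the same sign under both control scalings. Decay was -0.91 and -0.67 (limma estimate -0.79, standard error 0.32, adjusted p = 0.227). Probe set 228834_at read 8.13, 8.78, 6.32 and 7.35 in LNCaP and 8.97, 7.06, 6.06 and 7.01 in 22Rv1. Caffeine gave 0.66 in LNCaP and -1.91 in 22Rv1 there, and in both lines the lowest array was actinomycin D with caffeine, which differed from actinomycin D alone by -1.03 and -0.94.

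TOB2, on chromosome 22 at 41433494-41446801, had 1 probe set above the floor, 222243_s_at. It read 7.24, 6.87, 4.61 and 4.71 in LNCaP, whereas the 22Rv1 arrays gave 7.88, 7.66, 7.13 and 6.88. The LNCaP arrays with actinomycin D were the only ones under 6, and the 22Rv1 arrays did not drop that far. Decay was -2.16 in LNCaP and -0.78 in 22Rv1 (limma estimate -1.47, standard error 0.51, adjusted p = 0.181). The difference with caffeine kept was -2.26 and -0.52. Whether the lines differed in these values was not tested.

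**Figure D2:**
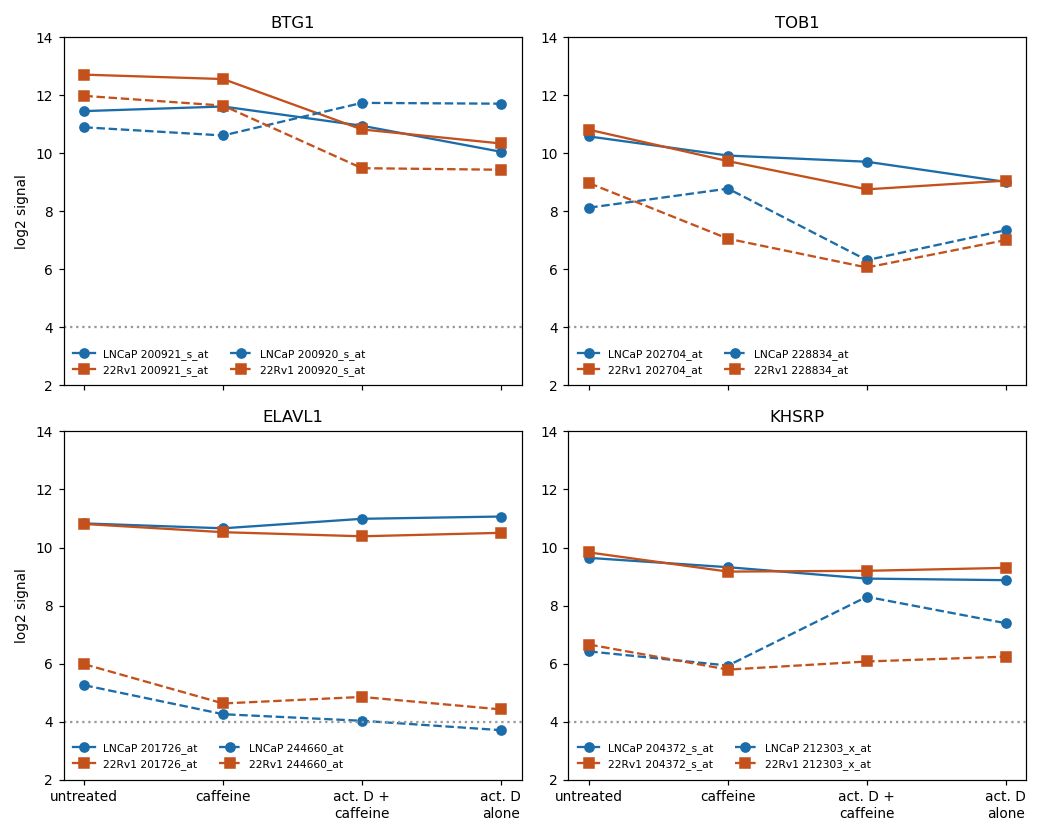
Log2 signal of pairs of probe sets of BTG1, TOB1, ELAVL1 and KHSRP against treatment, 1 array per point; circles are LNCaP, squares are 22Rv1, and the dotted line is the floor of 4. For BTG1 200920_s_at (broken lines) LNCaP is at 11.71 and 22Rv1 at 9.43 after actinomycin D alone, where the other probe set gives 10.05 and 10.34; the LNCaP decay difference of 1.10 in the broken line becomes -0.49 on the poly-A scale.

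HNRNPD, which encodes the AUF1 proteins, lies on chromosome 4 at 82352498-82373991 and had 6 probe sets above the floor. Probe set 213359_at read 8.61, 9.92, 8.57 and 6.79 in LNCaP, in the order untreated, caffeine, actinomycin D with caffeine and actinomycin D alone. In 22Rv1 it read 9.53, 10.95, 10.30 and 9.20. In each line the caffeine array was the highest and actinomycin D alone the lowest, and LNCaP was below 22Rv1 in every treatment. Caffeine gave 1.31 in LNCaP and 1.41 in 22Rv1 (limma estimate 1.36, standard error 0.39, adjusted p = 0.175). After actinomycin D caffeine gave 1.78 and 1.11 (limma estimate 1.45, standard error 0.39, adjusted p = 0.473).

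The HNRNPD mRNA read by 213359_at fell by 2.44 after actinomycin D alone (standard error 0.39, adjusted p = 0.0438 in limma). Decay was -3.13 in LNCaP and -1.75 in 22Rv1. With caffeine kept these were -1.35 and -0.64 (limma estimate -0.996, standard error 0.39, adjusted p = 0.396). All of these differences kept their sign under both control scalings. The call did not hold when any 1 of the 8 arrays was left out, with adjusted p from 0.0589 without an untreated array to 0.208 without the LNCaP array for actinomycin D alone, and estimates from -3.03 to -1.85. It was lost with no line term (adjusted p = 0.883), with no filter on low signals (0.296) and with only the 4 arrays of the comparison (0.141). With no line term, with only those 4 arrays or without any 1 treated array, no probe set of the whole array was called for decay. Those losses are therefore not particular to 213359_at.

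The other 5 HNRNPD probe sets did not share the high caffeine values of 213359_at. Probe set 221481_x_at read 12.42, 12.06, 11.21 and 11.20 in LNCaP and 11.88, 11.60, 11.30 and 11.23 in 22Rv1. Probe set 200073_s_at read 11.72, 11.28, 10.65 and 10.45 in LNCaP, and the 22Rv1 arrays gave 11.42, 10.85, 10.86 and 10.78. Both were highest in the untreated cells of each line. Probe set 209330_s_at read 10.58, 10.02, 9.89 and 10.04 in LNCaP and 10.25, 9.10, 9.37 and 9.44 in 22Rv1, again highest untreated. The estimates for caffeine were -0.32, -0.51 and -0.86 (adjusted p = 0.563, 0.379 and 0.147 in limma). On the hybridisation control scale the LNCaP differences of 221481_x_at and 200073_s_at were positive, at 0.15 and 0.06.

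The last pair of HNRNPD probe sets differed most between the lines. Probe set 229129_at read 5.69, 4.31, 4.79 and 4.77 in LNCaP, and the 22Rv1 arrays gave 7.76, 7.14, 7.70 and 8.05. For 221480_at the LNCaP values were 5.15, 4.57, 4.76 and 4.90, and the 22Rv1 values were 7.46, 6.52, 7.03 and 7.29. No LNCaP array reached the lowest 22Rv1 array in either, and the caffeine array was the lowest of each line. The share of all probe sets with lines apart in this way is not given here, and limma called 26.3% of all lower in LNCaP. The caffeine estimates were -1.0 and -0.76 (adjusted p = 0.196 and 0.159 in limma). Over the 8 arrays this pair had a Pearson r of 0.99, whereas 213359_at and 209330_s_at had -0.57, as descriptions of points that share arrays. Alternative splicing near the 3′ end of HNRNPD is known to yield mRNA forms that NMD can degrade, and which form 213359_at reads was not given in the sources used here.

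**Figure D3:**
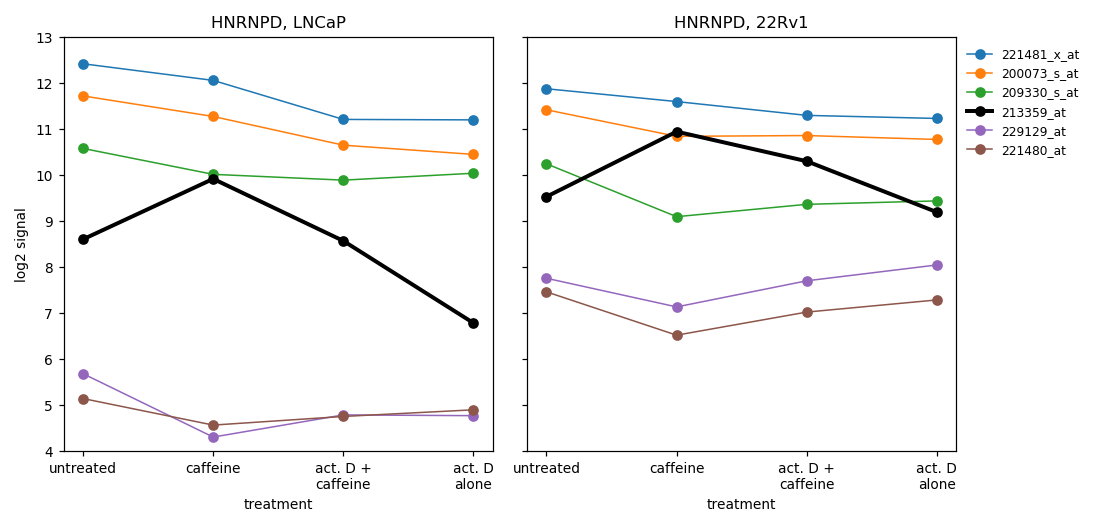
Log2 signal of the 6 HNRNPD probe sets above the floor against treatment, LNCaP on the left and 22Rv1 on the right, 1 array per point. The thick black line, 213359_at, peaks on the caffeine arrays at 9.92 and 10.95 and ends at 6.79 and 9.20 after actinomycin D alone, and the 5 thin lines are lower after caffeine than untreated on the deposited scale (in LNCaP 221481_x_at and 200073_s_at are higher, by 0.15 and 0.06, on the hybridisation control scale).

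KHSRP, the gene of KSRP on chromosome 19 at 6413102-6424811, had 2 probe sets above the floor. Probe set 204372_s_at read 9.64, 9.32, 8.93 and 8.87 in LNCaP, and 9.83, 9.17, 9.20 and 9.30 for 22Rv1. The untreated array was the highest of each line. Its caffeine difference was -0.32 in LNCaP, or 0.19 on the hybridisation control scale, and -0.66 in 22Rv1 (limma estimate -0.49, standard error 0.22, adjusted p = 0.321). Probe set 212303_x_at read 6.42, 5.93, 8.30 and 7.39 in LNCaP and 6.66, 5.79, 6.07 and 6.24 in 22Rv1. Its highest value, 8.30, was on the LNCaP array whose 18S signal was 11.71, and the part of that array in the value was not tested. The LNCaP difference with caffeine kept, which uses this array, was 2.37, and that for decay, which does not, was 1.46 and became -0.13 on the poly-A scale.

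ELAVL1, the stabilising HuR gene, lies on chromosome 19 at 7958573-8005641 and had 4 probe sets above the floor. Probe set 201726_at read 10.83, 10.66, 10.99 and 11.07 in LNCaP and 10.81, 10.53, 10.39 and 10.51 in 22Rv1. It spanned less than 1 over the 8 arrays, and no limma estimate for it was more than 0.23 from 0 in any comparison of treatments on the deposited scale. Probe set 201727_s_at read 8.51, 8.16, 8.24 and 8.32 in LNCaP and 7.73, 7.07, 7.11 and 7.66 in 22Rv1. All 4 LNCaP arrays of that probe set were above all 22Rv1 arrays. The share of all probe sets with this trait is not given here, and limma called 27.4% of all higher in LNCaP.

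The remaining pair of ELAVL1 probe sets was lower after caffeine by about 1 or more. Probe set 227746_at read 5.61, 4.65, 4.15 and 4.33 in LNCaP and 7.92, 5.87, 5.91 and 5.59 in 22Rv1. Probe set 244660_at read 5.25, 4.26, 4.03 and 3.71 in LNCaP and 5.98, 4.63, 4.85 and 4.42 in 22Rv1. In both, the untreated array stood alone at the top of each line and the 3 treated arrays lay close together. Caffeine gave -0.96 and -2.05 for 227746_at (limma estimate -1.50, standard error 0.32, adjusted p = 0.111). It gave -1.0 and -1.35 for 244660_at (limma estimate -1.18, standard error 0.21, adjusted p = 0.0856), and neither changed sign under the control scalings. The pair had a Pearson r of 0.92 over the 8 arrays, and 227746_at had -0.35 with 201726_at, as descriptions of points that share arrays.

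**Figure D4:**
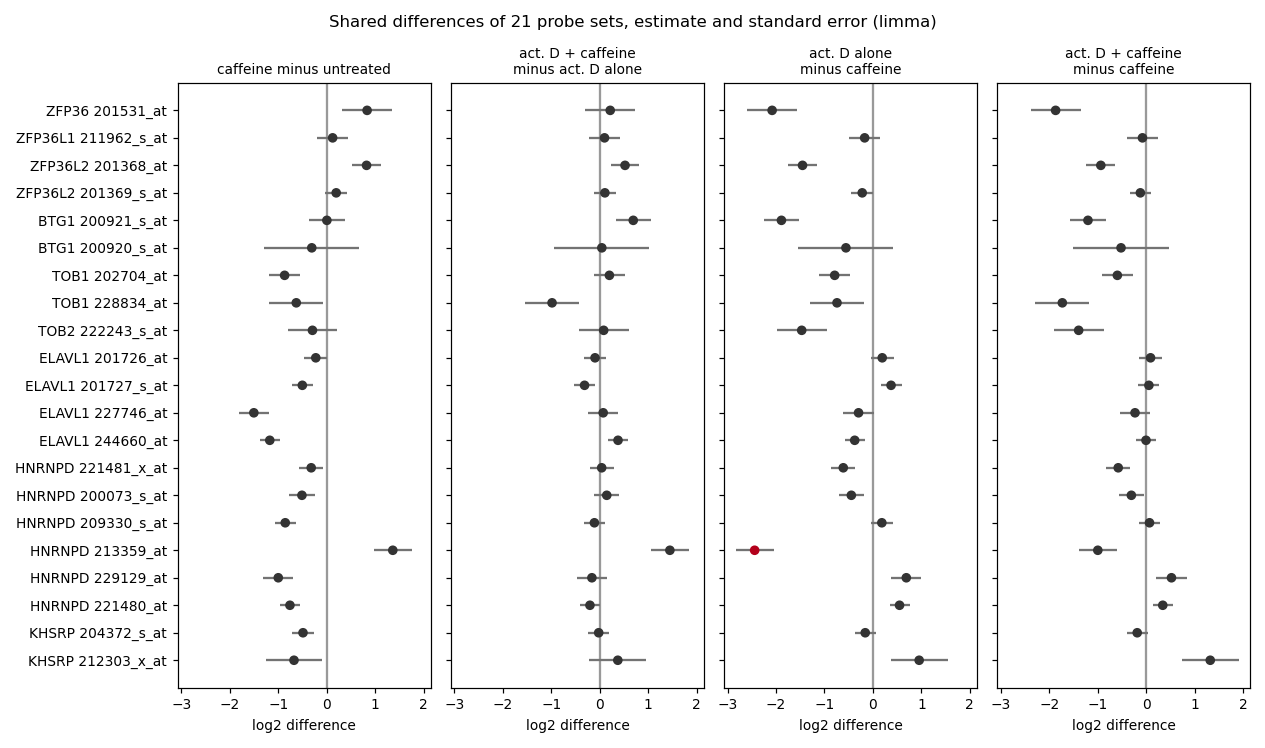
Limma estimates of 21 probe sets for 4 comparisons, in log2 units on the deposited scale, with bars of 1 standard error; red marks an adjusted p under 0.05. HNRNPD 213359_at is the single red point, at -2.44 for actinomycin D alone minus caffeine, and it lies at 1.36 and 1.45 in the first and second panels.

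Between the lines limma called 9 of the 21 members over the 4 treatments, and such calls were common on the whole array. The 4 treatments of a line stand in for its replicates here, with 1 array each. No line difference was checked on repeated cultures of the same treatment. Limma called 2 higher in LNCaP (27.4% of all probe sets tested) and 7 lower (26.3%), where an estimate is the mean of LNCaP minus 22Rv1. The lowest in LNCaP were HNRNPD 229129_at (estimate -2.77, adjusted p = 0.000271 in limma) and 221480_at (-2.23, adjusted p = 0.000138 in limma). ZFP36L2 201368_at had -2.04 (adjusted p = 0.000668 in limma) and ELAVL1 227746_at -1.64 (adjusted p = 0.00186 in limma). HNRNPD 213359_at and TOB2 222243_s_at both had -1.52 (adjusted p = 0.00551 and 0.0150 in limma), and ELAVL1 244660_at had -0.66 (adjusted p = 0.0119 in limma), which was no longer called on the poly-A scale (-0.22, adjusted p = 0.442) or the hybridisation control scale (-0.45, adjusted p = 0.151). Higher in LNCaP were ELAVL1 201727_s_at by 0.92 (adjusted p = 0.00395 in limma) and HNRNPD 209330_s_at by 0.60 (adjusted p = 0.0206 in limma). The call of 209330_s_at was lost without either caffeine array (adjusted p = 0.0859), without either array for actinomycin D with caffeine (0.0526) and without either for actinomycin D alone (0.0686). That of TOB2 was lost without either array for actinomycin D alone (0.0641) and on the poly-A scale (0.0516). With no filter on low signals the calls of HNRNPD 209330_s_at (0.0621), HNRNPD 213359_at (0.0767) and TOB2 (0.147) were lost. So ELAVL1 and HNRNPD each had probe sets that were higher and probe sets that were lower in LNCaP.

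Other genes of the pathway were taken from lists. Of 17 genes of the deadenylases and the poly(A) tail, 16 were detected, with a median caffeine difference of 0.14 in LNCaP and 0.18 in 22Rv1, and limma called 0 of their 30 tested probe sets in any of the 4 comparisons of treatments. CNOT4, a ubiquitin ligase bound to CCR4-NOT, had decay of -1.03 and -2.88, and the deadenylase gene CNOT6L -1.16 and -0.90. PAN3, a subunit of another deadenylase, had caffeine differences of 0.89 and 0.98. Of 19 other factors that bind AU-rich or related elements, 14 were detected in the caffeine comparison, with medians of 0.05 and -0.19. RC3H1 (roquin), which recruits the same deadenylase to stem loops, had the largest mean there when 1 probe set stood for each gene, at 1.34 and 1.24, although a probe set of RC3H2 had a larger estimate of 3.13 in limma (adjusted p = 0.222). In the decay comparison 2 of 45 tested probe sets of that list were higher in limma (0.475% of all) and 0 lower (1.86%), 1 each of CELF1 and RC3H2. Other tested probe sets of both genes were not called and had estimates of both signs. Examples are 1.58 and -0.16 for CELF1 and 3.89 and -0.33 for RC3H2.

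A list of 31 mRNAs with AU-rich elements was chosen with earlier results of these data known. Whether the member proteins bind them in these cells was not tested. Of these mRNAs, 21 were detected on the LNCaP arrays of the decay comparison and 24 on those of 22Rv1. Of these, 12 and 15 were lower by at least 1, against 11.9% and 10.5% of all detected genes, with medians of -1.58 and -2.07 against -0.09 and 0.03 over all detected genes. In limma 9 of 40 tested probe sets fell (1.86% of all) and 0 rose (0.475%). The 9 were 1 each of MYC, DUSP1, IER2, BCL6, GADD45A, GADD45B and MCL1 and 2 of PPP1R15A. Other tested probe sets of DUSP1, BCL6, GADD45B and MCL1 were not called. Those of MCL1 had estimates of both signs, such as 0.91 and -0.71. Those of DUSP1, BCL6 and GADD45B were all negative, from -0.31 for BCL6 to -2.99 for GADD45B. No probe set of the whole array was called for decay with no line term, with only the 4 arrays compared, or without any 1 of the 6 treated arrays, so the calls of this and the preceding lists were lost there. With caffeine kept the medians were -0.21 and -1.10, and limma called 0 of 40. A list for the p38 and MK2 kinase route, which inactivates ZFP36, had 6 detected genes of 8. It also held the phosphatase genes DUSP1 and DUSP10, so its median does not describe the kinases alone. The median caffeine difference was 0.00 in LNCaP and 0.65 in 22Rv1, against -0.02 and -0.02 over all detected genes. In 22Rv1 the 2 genes higher by at least 1 were DUSP10 (1.72, and 0.04 in LNCaP) and DUSP1 (1.35, and -0.03 in LNCaP). Kinase genes had caffeine estimates of both signs, such as 0.49 for a MAPKAPK2 probe set and -0.75 for one of MAPKAPK3. Whether the route was more active was not tested. Limma called 1 of 11 tested probe sets in the decay comparison, the same DUSP1 probe set as above, and 0 in the other comparisons.

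The genes whose signals ran most like a member's over the 8 arrays were found among 4218 genes that span at least 2 on the log2 scale. For ZFP36 they were CSRNP1 (Pearson r of 0.978), AMOTL2 and LRIG3, and for ZFP36L2 they were STK17A (0.979), SMURF1 and KMT2D. CITED2 (0.984), TBX3 and EP300 came first for BTG1, KLF3 (0.972), THAP11 and HDHD3 for TOB1, and SLC16A14 (0.990), ZNF700 and GJC1 for TOB2. The representative probe sets of ZFP36L1, ELAVL1, HNRNPD and KHSRP spanned less than 2 and were not matched. With 8 arrays that share treatments and lines, these values order genes and test nothing.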

How the data were processed

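The files hold log2 signals. The authors made these log2 values with gcRMA from the scanned arrays, by background correction, quantile normalisation over all 8 arrays and a summary for each probe set, and the processing notes of the submitters list RMA and GCRMA without versions. Quantile normalisation removes any change that all mRNAs share, so each value is relative to its array. In the annotation 41097 probe sets carry 1 gene symbol, 1801 carry several and 11777 none. Where 1 value per gene was needed, the probe set of the largest mean over the arrays was used. Gene positions and promoters are from RefSeq (GRCh38.p14), in which 7 of the 9 members had a promoter. No protein table was used here. Differences were taken from the deposited log2 values and fitted with limma 3.58.1 in R 4.3.3 (3 residual degrees of freedom, prior 2.93, adjusted p under 0.05), and the fit was tested on simulated data. The number of arrays limits the precision. All members were named, and of each other list up to 3 genes by the size of their mean over the lines in each comparison, with probe sets that passed the test. Members and lists were chosen with earlier results of these data known. Alternatives were other variance models, filters, arrays, folds and floors, and scaling on the 22 poly-A or 18 hybridisation control probe sets. The rest used python 3.11.15, numpy 2.4.6, pandas 2.3.3 and matplotlib 3.10.9.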

Additional observations from a re-analysis of the deposited data

Results flagged for a closer look

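In 3 comparisons a probe set moved in opposite directions in the 2 lines by at least 0.5 on the log2 scale in each. Smaller opposite differences were not listed. Each line has 1 array per treatment, and whether the lines differ was not tested. BTG1 200920_s_at had a decay difference of 1.0952 in LNCaP and -2.2104 in 22Rv1. With caffeine kept through actinomycin D the same probe set had 1.1231 in LNCaP and -2.1564 in 22Rv1. These comparisons share the caffeine array of each line. TOB1 228834_at had a caffeine difference of 0.6559 in LNCaP and -1.9128 in 22Rv1. Both genes had another probe set with negative differences in both lines in the same comparison.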

How the results depend on the processing

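The limma count of 1 member in the decay comparison became 0 with no line term, with no filter and with only the 4 arrays compared, and 0 to 0 with each array left out. It became 3 with a variance trend (562 lower and 148 higher of all 21453 probe sets) and with a mean of at least 6 (494 and 179 of 14167). It became 19 on the poly-A scale (17581 lower and 57 higher of all 21453) and 5 on the hybridisation control scale (1644 and 206). The poly-A scale called most probe sets of the array lower, so its count is not particular to the members. On the hybridisation control scale ZFP36, BTG1 200921_s_at, ZFP36L2 201368_at and TOB2 were called beside HNRNPD 213359_at. The caffeine count of 0 became 1 on the hybridisation control scale, that of HNRNPD 213359_at (adjusted p = 0.0484 in limma). There 909 of all 21453 probe sets were higher and 75 lower. With caffeine kept, the count of 0 became 17 on the poly-A scale (10579 lower and 69 higher of all 21453). It became 1 on the hybridisation control scale (480 lower and 79 higher). On the poly-A scale estimates changed sign and passed the test for ELAVL1 201726_at, to -1.1918 for decay and -0.8831 with caffeine kept, for ELAVL1 201727_s_at, to -1.0095 and -0.9174, for HNRNPD 209330_s_at, to -1.2001 and -0.9045, and for HNRNPD 221480_at, to -0.8344 for decay. Others changed sign there without passing, among them HNRNPD 229129_at, to -0.69 for decay, and KHSRP 212303_x_at, to -0.43. In LNCaP the decay of ZFP36L2 was 0.0561 by its other probe set and that of BTG1 1.0952 by its other probe set.

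Within a line, a fold of 0.5 in place of 1 on the log2 scale gave 10 members for caffeine in LNCaP and 15 in 22Rv1 (2 and 7 before), 6 and 3 after actinomycin D with against without caffeine (2 and 1 before), 11 for decay in 22Rv1 (5 before), and 10 and 10 with caffeine kept (6 and 4 before). A fold of 1.3 gave 4 for caffeine in 22Rv1, and 1 and 0 after actinomycin D. A floor of 6 gave 1 for caffeine in LNCaP. A smaller fold counts more of all probe sets too. The shares of all probe sets at these settings are not given here, so these counts describe nothing particular to the members. The line term pairs the arrays by cell line, and with 1 array for each line and treatment there are no replicate numbers to pair within a line. Depth does not apply to arrays, and signals under 4 have no order.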
